A study of Mus musculus with 4 samples.

Results

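The glutathione transferases described here are 8 genes of the mouse, *Gsta3*, *Gsta4*, *Gstm1*, *Gstm2*, *Gsto1*, *Gstp1*, *Mgst1* and *Mgst3*, out of 31053 genes in the count matrices. They were selected on their measured levels in these same cells, so their differences by lobe, reporter, treatment, cell class and day are given as descriptions without p-values. All 8 were detected in all 4 libraries, and all 8 passed the filter on low counts.

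Droplet-based scRNA-seq (10x Genomics 3′ v3) was performed on sorted EPCAM+ cells of adult prostates, older than 8 weeks, from P2-*Runx1*:RFP mice on an ICR (CD-1) background. All adult mice carried this reporter, in which the proximal P2 promoter of *Runx1* directs RFP, and a MULTI-seq barcode marked each lobe (anterior, AP; dorsolateral, DLP; ventral, VP) and RFP gate. The mice pooled were 4 intact with 4 castrated ones (run 1), 3 intact with 5 castrated ones (run 2) and 4 intact ones (run 3), castrated more than 4 weeks earlier. Another library held urogenital sinus (UGS) explants of E15.5 embryos, cultured with 10 µM dihydrotestosterone and pooled at days 0, 1, 3 and 6. The 3 runs are independent pools of mice and served as replicates of intact cells, whereas castrated cells (compared within run 2) and explant days were 1 pool each, with no test. Intact DLP RFP+ cells came from run 3 alone, because their barcode failed in the other two runs, and the castrated lobes of run 1 were pooled.

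Glutathione transferases couple the tripeptide glutathione to electrophilic compounds such as lipid peroxidation products and drug metabolites, and the conjugates leave the cell through ABC transporters. The cytosolic enzymes fall into classes, here alpha (*Gsta3*, *Gsta4*), mu (*Gstm1*, *Gstm2*), omega (*Gsto1*) and pi (*Gstp1*), while *Mgst1* and *Mgst3* encode membrane proteins of an unrelated family with transferase and peroxidase activity. GSTA4 is known for conjugating the lipid aldehyde 4-hydroxynonenal, GSTO1 for reducing dehydroascorbate, and GSTP1 in man for silencing by promoter methylation in prostate cancer. Many of these genes are induced by NRF2 (*Nfe2l2*), which binds the antioxidant response element with small MAF proteins.

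In GRCm38 (mm10), the build of the count files, the genes lie at chr1:21240565-21265575 (*Gsta3*), chr9:78191966-78209349 (*Gsta4*), chr3:108012250-108017973 (*Gstm1*), chr3:107981702-107986420 (*Gstm2*), chr19:47854973-47864790 (*Gsto1*), chr19:4035411-4037912 (*Gstp1*), chr6:138140527-138156755 (*Mgst1*) and chr1:167371966-167393841 (*Mgst3*). *Gstm1* and *Gstm2* are neighbours on chromosome 3. Close paralogs of the mu and pi classes share sequence, and Cell Ranger counts only reads assigned to a single gene, so the values of *Gstm1*, *Gstm2* and *Gstp1* are less certain than those of the other members.

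The core of the antioxidant response element, TGACNNNGC, was searched on both strands in the 300 bases around each RefSeq start (GRCm38.p6), from 250 before to 50 after. It was in 4071 of 32851 promoters (12.4%) and in 2 of 9 promoters of 7 members, namely those of *Gsta3* and *Mgst1*, and *Gsta4* had no entry. These windows are shown because the same genes had the highest ratios of RFP+ to RFP- luminal cells in the AP (below). Capitals mark the motif, which lies 121 to 113 bases before the start of *Gsta3* (chr1:21240434-21240502, plus strand) and, on the reverse strand, 56 to 48 bases before that of *Mgst1* (chr6:138140441-138140509, plus strand). A match to these letters is a description and not evidence of binding.
*Gsta3*: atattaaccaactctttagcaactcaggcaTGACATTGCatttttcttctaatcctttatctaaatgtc
*Mgst1*: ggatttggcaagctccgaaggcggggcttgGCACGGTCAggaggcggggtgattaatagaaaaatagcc

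Of the 2612, 6034 and 3028 cells in the matrices of runs 1 to 3, 819, 2181 and 1660 passed the filters with 1 assigned population, with a median of 9719.5 to 12987 UMIs. Clusters made anew in each run gave 2088 basal and 2040 luminal cells, named by marker genes. UMIs were summed per run, lobe, RFP gate and class, for at least 10 cells. The gates and classes followed their defining genes: *Runx1* was at 100.8 ± 32.3 (SD, n = 3 runs) in AP RFP+ and 10.8 ± 7.03 in AP RFP- luminal cells, and *Krt5* at 775 ± 86.0 in AP RFP+ basal and 27.5 ± 5.08 in AP RFP+ luminal cells. Basal markers as a whole (9 genes, none at 0) summed to 1385 to 2984 CPM (counts scaled to a common total) in AP RFP+ and 174 to 623 in AP RFP- luminal cells; their part in the RFP comparison of the AP was not tested. Markers of VP secretory cells (6 genes) summed to 4535 to 218967 CPM in AP RFP+ and 33079 to 149740 in AP RFP- luminal cells, whose part was likewise not tested.

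Levels are given as CPM, the UMIs of a gene scaled to a common library total. Those of intact cells and of kinds of cluster were further scaled by TMM, a correction for libraries dominated by a few genes. The same VP markers took 491656 to 580536 CPM in VP luminal cells, and TMM factors were 0.495 to 0.636 there against 1.01 to 1.44 in AP luminal cells. With library size alone (chosen after the data were seen), the median of all genes moved by 1.14 (RFP+) and 0.94 (RFP-) log2 units towards AP luminal cells, and by 1.15 towards basal cells in the VP. Differences across lobes are therefore given relative to TMM. In sums of bulk kind, fewer cells expressing a gene and less RNA per cell cannot be told apart.

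**Figure D1:**
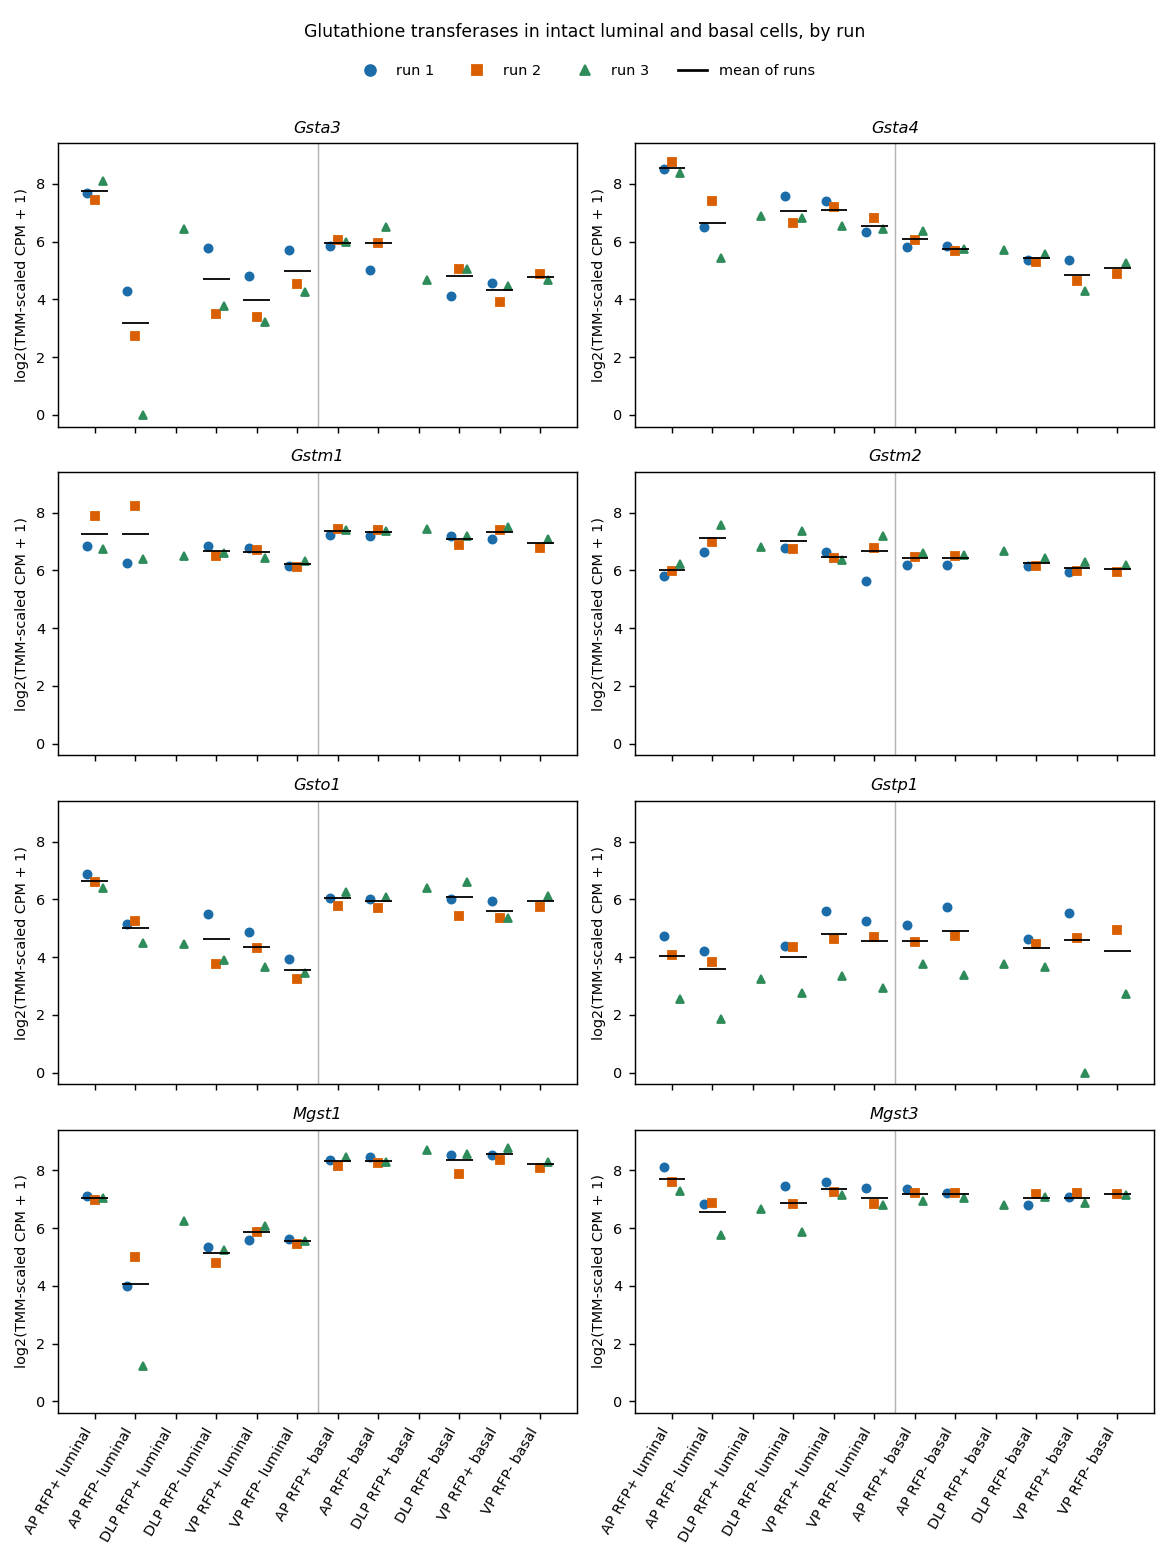
Levels of the 8 glutathione transferases in intact cells, as log2 of TMM-scaled CPM plus 1 (vertical axis), by lobe, RFP gate and class (horizontal axis). Each symbol is 1 run and each bar the mean of runs, and *Gsta3* in AP RFP+ luminal cells (171 to 275 CPM) stands above all other groups.

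*Gsta3* was at 206, 171 and 275 CPM in AP RFP+ luminal cells of runs 1, 2 and 3, and at 18.7, 5.69 and 0.00 in AP RFP- luminal cells, where the 0 allows up to 3.98 CPM (3 UMIs, counting error only). All 3 RFP+ values were above all RFP- values. DLP RFP+ luminal cells followed at 86.6 (run 3 only), then AP RFP+ basal cells at 61.5 ± 4.44 and AP RFP- basal cells at 60.9 ± 29.8. The other groups had means of 8.14 to 30.5, and those with several runs overlapped their neighbours in this order.

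Among the other members, AP RFP+ luminal cells had the highest mean of *Gsta4* (375 ± 49.3 CPM), *Gsto1* (97.9 ± 16.3) and *Mgst3* (208 ± 64.2) and the lowest mean of *Gstm2* (63.4 ± 9.20). For *Gsta4* the range of 331 to 428 in this group was clear of every other group, the highest other value being 189 in DLP RFP- luminal cells. For *Gsto1* and *Mgst3* the ranges overlapped with the following groups (DLP basal cells at up to 94.9, and VP RFP+ luminal cells at up to 193). *Mgst1* was a gene of basal cells, with means of 294 to 420 in the 6 basal groups and of 15.9 to 131 in the 6 luminal groups, and these ranges did not overlap. *Gstm1* had means of 122 to 173 in basal and 73.5 to 153 in luminal groups.

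*Gstp1* had means of only 8.55 to 29.1 CPM, and its lowest value in each group with several runs was that of run 3. In AP RFP+ luminal cells it was at 25.4, 15.9 and 4.89 in runs 1, 2 and 3, and in VP RFP+ luminal cells at 47.0, 23.5 and 9.06. The SD over the groups with 3 runs was 6.26 (mean 18.7, DLP RFP- basal cells) to 22.6 (mean 23.1, VP RFP+ basal cells). Run 3 was sequenced on another instrument than runs 1 and 2, and the part of this was not tested.

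The comparison of AP RFP+ with AP RFP- luminal cells asks what distinguishes luminal cells with *Runx1* promoter activity in the lobe where both gates hold many cells. Past the threshold (edgeR, adjusted p under 0.05 over 11731 genes) were 6 of 8 members, in a comparison in which 20.7% of all genes were called. Since the members were selected on these values, nothing is read from that count, and calls of members here and below are descriptions. *Gsta3*, *Mgst1*, *Gsta4*, *Gsto1* and *Mgst3* were higher and *Gstm2* was lower in RFP+ cells, and none of these overlapped between the gates. The share of all genes without overlap is not given, here or below, so overlap only describes the values of each gene.

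*Gsta3*, an alpha-class enzyme that in mice is known for detoxifying the epoxide of aflatoxin B1, was 26.7 times as high in the mean, with a log2 fold change of 4.56 ± 0.58 (SE). *Mgst1* was at 137, 126 and 130 CPM in RFP+ cells against 15.1, 31.3 and 1.33 in RFP- cells (2.83 ± 0.36 on the log2 scale). The range of *Mgst1* over the RFP+ runs was thus narrower than over the RFP- runs. In RFP- cells of run 2 it was at 31.6 CPM without TMM, and at 10.4 without cells with an *Ivl* UMI (below). *Gsta4* was at 365, 428 and 331 against 90.6, 167 and 42.5 (1.86 ± 0.32), *Gsto1* at 115, 95.2 and 83.1 against 34.4, 36.7 and 21.2 (1.62 ± 0.33), and *Mgst3* at 279, 190 and 155 against 112, 115 and 53.1 (1.13 ± 0.29). The mu-class gene *Gstm2* went the other way in each run, with 54.5, 62.9 and 72.9 in RFP+ and 98.4, 126 and 190 in RFP- cells (-1.11 ± 0.26). *Gstm1* (-0.04 ± 0.34) and *Gstp1* (0.36 ± 0.71) overlapped between the gates. Without run 2, *Gstm2* (-1.16) and *Mgst3* (1.38) were no longer called and *Mgst1* was at 3.80, and without run 1 *Gsta3* was at 5.70. Of the AP RFP+ luminal cells 86.2% were in Lum-D-like (proximal) clusters, and of the AP RFP- luminal cells 84.8% were in Lum-B-like (distal) clusters. Lum-D-like cells made up 7.79% and 5.37% of the AP RFP- luminal cells in runs 1 and 2. In run 3, 93.2% were Lum-B-like. In the VP the RFP gates divide luminal cells differently, with Lum-A-like clusters holding 90.0% of RFP+ and 50.8% of RFP- cells.

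**Figure D2:**
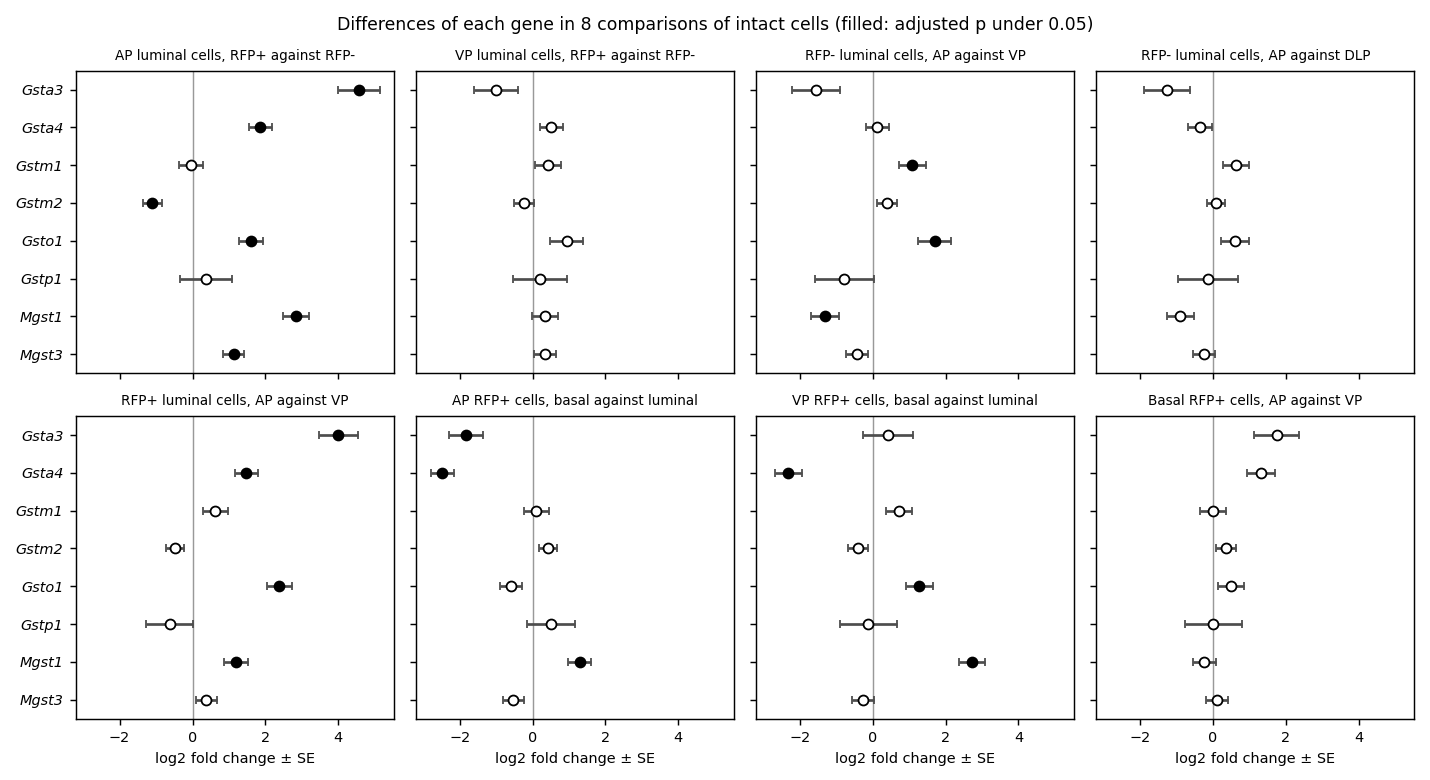
Log2 fold change ± SE (horizontal axis) of the 8 genes in the 8 comparisons of intact cells, 1 panel each, from edgeR over sums of runs. Filled symbols have an adjusted p under 0.05, which only describes these genes because they were selected on these values. *Gsta3* is filled and positive in AP luminal cells (RFP+ against RFP-) and in RFP+ luminal cells (AP against VP).

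In VP luminal cells 0 of 8 members were called between RFP+ and RFP- (background 0.332%, or 39 of 11731 genes, and 95 with run as a block). *Gsta3* was at 26.9, 9.38 and 8.24 CPM in RFP+ and 51.1, 22.4 and 18.0 in RFP- cells, lower in RFP+ cells in each run, but with overlapping ranges (-1.01 ± 0.61). *Gsto1* (0.94 ± 0.46), *Gsta4* (0.52 ± 0.32), *Gstm1* (0.43 ± 0.36) and *Mgst3* (0.34 ± 0.30) were higher in RFP+ cells in 3 of 3 runs, and only *Gstm1* did so without overlap, at 84.3 to 109 against 69.4 to 80.1. For DLP there is 1 run with both gates: *Gsta3* was at 86.6 in RFP+ and 12.7 in RFP- luminal cells and *Mgst1* at 75.0 and 36.8, while *Gsta4* was at 116 and 111. In plain CPM *Gsta4* turned, at 74.2 and 118. Of these cells, 60.6% of RFP+ were Lum-A-like and 27.3% Lum-D-like, and 72.4% of RFP- were Lum-B-like.

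The lobes were compared within each gate. Between AP and VP RFP+ luminal cells, 4 of 8 members were called (24.2% of all genes), each higher in the AP without overlap. *Gsta3* differed most (4.00 ± 0.54), followed by *Gsto1* at 115, 95.2 and 83.1 CPM in the AP and 28.1, 18.8 and 11.5 in the VP (2.38 ± 0.33), *Gsta4* (1.48 ± 0.31) and *Mgst1* at 126 to 137 in the AP and 47.0 to 65.9 in the VP (1.20 ± 0.33). *Gstm2* was lower in the AP in each run (-0.48 ± 0.25, not called), and this direction turned to 0.65 with library size alone, as did that of *Gstp1* (-0.63 ± 0.65 to 0.51). *Mgst1* was no longer called without run 1 (1.08) or run 2 (1.25), and *Gsta3* was at 4.67 without run 1. This comparison shares its AP cells with the preceding one between gates.

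RFP- luminal cells gave another picture between AP and VP, with 3 of 8 members called (13.7% of all genes). *Gsto1* was higher in the AP, at 34.4, 36.7 and 21.2 CPM against 14.2, 8.39 and 9.81 (1.70 ± 0.45). *Mgst1* was lower in the AP, at 15.1, 31.3 and 1.33 against 48.3, 43.1 and 45.8 (-1.30 ± 0.38), but at 0.32 when cells were classed by a per-cell marker score instead of clusters. *Gsta3* was lower in the AP in each run (-1.56 ± 0.66, not called). With library size alone *Gstp1* turned from -0.78 to 0.12 and *Mgst3* from -0.42 to 0.51. *Gstm1* was called higher in the AP (1.09 ± 0.36), which rests on run 2: the values were 76.0, 301 and 82.3 against 71.0, 69.4 and 80.1, and the log2 fold change without run 2 was 0.08. The calls depended on single runs: *Gstm1* was not called without run 3 either (1.43), *Gsto1* not without run 2 (1.33), *Mgst1* not without run 1 (-1.12) or run 3 (-0.94) and at -2.25 without run 2, and *Gsta3* was called without run 1 (-2.26).

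Between AP and DLP RFP- luminal cells 0 of 8 members were called (1.24% of all genes, 146 in number and 420 with run as a block), and the ranges of each member overlapped. The largest differences were those of *Gsta3* (-1.26 ± 0.64, lower in the AP in 3 of 3 runs) and *Mgst1* (-0.89 ± 0.37). *Gstm1* was at 0.64 ± 0.35 and at -0.40 without run 2.

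*Gstm1* in run 2 was carried by few cells. In run 2, 15 of 1124 luminal cells had more than 2000 CPM of *Gstm1* (a limit set after the data were seen), with up to 11621 in a cell, whereas 0 of 388 cells in run 1 and 0 of 528 in run 3 did, with highest values of 936 and 774. Of the 1060 *Gstm1* UMIs in intact AP RFP- luminal cells of run 2, 4 cells held 76.6%, and of the 448 in AP RFP+ cells 3 cells held 60.7%. The plain CPM of the remaining cells was 73.9 and 100.6. These 15 cells were in Lum-D-like clusters, 9 from intact and 6 from castrated mice, and also had 2835 CPM of *Gsta4* against 98.2 in the other luminal cells of the run, 604 against 20.4 of *Gsto1*, 932 against 114 of *Mgst3*, and 735 against 54.9 of *Mgst1*. *Gsta3* (83.5 against 16.1) and *Gstm2* (140 against 78.1) differed less. Their levels of *Ivl*, a component of the cornified envelope, were 1088 against 1.38 CPM, and of *Upk3a*, a urothelial plaque protein, 728 against 14.2. Luminal cells with an *Ivl* UMI numbered 3, 28 and 2 in runs 1 to 3. Without them (chosen after the data were seen) the log2 fold change of *Gstm1* between AP and VP RFP- luminal cells was 0.09, and those of *Gsta4* and *Mgst1* between RFP+ and RFP- AP luminal cells were 2.36 and 3.61, while that of *Gstm1* moved from -0.04 to 0.46.

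Basal and luminal cells of the same gate were compared next. In AP RFP+ cells 3 of 8 members were called (28.6% of all genes). *Mgst1* was higher in basal cells, at 329, 280 and 355 CPM (1.29 ± 0.32), while *Gsta4*, at 55.6, 65.9 and 80.9 (-2.48 ± 0.33), and *Gsta3*, at 56.6, 65.3 and 62.4 (-1.82 ± 0.47), were lower than in the luminal values given above. *Gsto1* was lower in basal cells in each run without overlap (-0.60 ± 0.31, not called). *Gsta3* was no longer called without run 2 (-2.07) or run 3 (-1.63).

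In VP RFP+ cells 3 of 8 members were called as well (36.1% of all genes). *Mgst1* was at 367, 330 and 436 CPM in basal and 47.0, 57.0 and 65.9 in luminal cells (2.73 ± 0.34), *Gsta4* at 40.2, 24.1 and 18.8 against 167, 146 and 91.7 (-2.31 ± 0.38), and *Gsto1* at 60.3, 40.1 and 39.9 against 28.1, 18.8 and 11.5 (1.28 ± 0.38). *Mgst1* was thus higher in basal and *Gsta4* in luminal cells of both lobes, while *Gsto1* was no longer called without run 2 (1.39) or run 3 (1.09). *Gstm1* was higher (0.72 ± 0.35) and *Gstm2* lower (-0.41 ± 0.28) in basal cells in each run, neither called, and with library size alone *Gstm2* was at 0.75, *Gstp1* at 1.03 and *Mgst3* at 0.90, all 3 turned from negative values.

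Basal RFP+ cells of AP and VP had 0 of 8 members called (0.298% of all genes, 35 in number and 183 with run as a block). *Gsta3*, at 56.6, 65.3 and 62.4 CPM in the AP and 22.6, 14.0 and 21.1 in the VP (1.75 ± 0.62), and *Gsta4*, at 55.6, 65.9 and 80.9 and 40.2, 24.1 and 18.8 (1.32 ± 0.38), did not overlap. *Gsta3* was called without run 1 (1.95). The other members differed by -0.23 to 0.50 on the log2 scale.

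By kind of cluster, each scaled to one another by TMM, *Gsta3* was highest in intact Lum-D-like cells, at 242, 204 and 355 CPM in runs 1 to 3 (209, 105 and 157 cells). Lum-B-like cells had 7.93, 0.82 and 0.00, Lum-A-like cells 5.99 to 7.38, Lum-C-like cells 50.1 and 26.7 in runs 2 and 3, and basal-like cells 42.8 to 45.1. *Mgst1* in Lum-B-like cells, at 16.9, 4.11 and 0.00, was the lowest of the kinds in each run. *Gsta4* in Lum-D-like cells was at 446, 810 and 386, against 43.9 to 149 in the other intact kinds. The sum with 810 includes 9 of the cells of run 2 with over 2000 CPM of *Gstm1*, whose part was not tested. *Gstm2* was at 52.5, 63.4 and 70.3 in Lum-D-like and at 104, 132 and 170 in Lum-B-like cells. The clusters were built from the expression of these same cells, so these levels are a description.

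**Figure D3:**
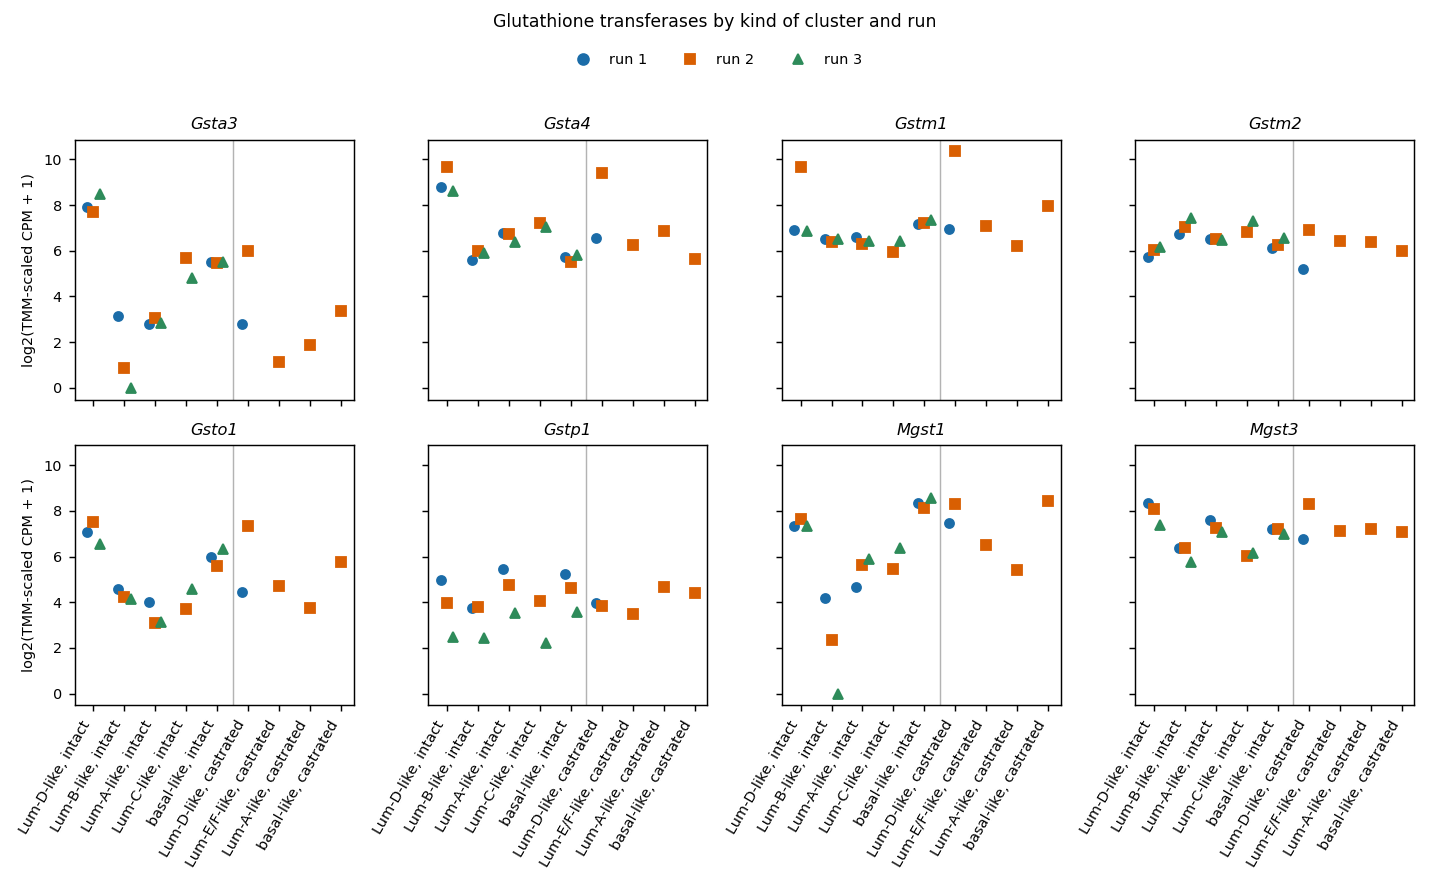
Levels of the 8 genes, as log2 of TMM-scaled CPM plus 1 (vertical axis), by kind of cluster in intact and castrated mice (horizontal axis). Each symbol is 1 run, and intact Lum-D-like cells have the highest *Gsta3* (204 to 355 CPM), while castrated Lum-E/F-like cells are at 1.19.

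Castration removes testicular androgen and is followed by regression of luminal cells. Castrated and intact cells of run 2 were compared as ratios of plain CPM with exact intervals that cover counting error only, and a gene counted as called at a 2-fold ratio among genes with at least 50 CPM on either side. *Pbsn*, a known androgen-dependent gene, was at 814 CPM in castrated and 8973 in intact AP RFP- luminal cells.

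In AP RFP+ luminal cells, 3 of the 7 members with at least 50 CPM were called (16.1% of all such genes). *Gsta3* was at 3.79 CPM (13 UMIs in 194 cells) in castrated and 178 (324 UMIs in 102 cells) in intact cells, 47.1 times lower (27.2 to 89.5). *Gsto1* was at 22.1 and 99.1 (4.48 times lower, 3.41 to 5.94) and *Gsta4* at 108 and 446 (4.13 times lower, 3.65 to 4.68). *Gstm1* (138 and 247), *Mgst1* (80.9 and 131) and *Mgst3* (141 and 198) were lower by less, and *Gstm2* was at 76.6 and 65.5. The median of all genes was at 0.25 on the log2 scale, inside the counting interval of *Gstm2* (0.22, -0.09 to 0.55). Without cells with an *Ivl* UMI, *Gstm1* turned to a log2 ratio of 0.11. In these sums 80.4% of intact cells were in Lum-D-like clusters and 83.0% of castrated cells in Lum-E/F-like clusters.

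Levels within kinds of clusters are TMM-scaled as above and join the lobes. *Gsta3* was at 1.19 CPM in 451 castrated Lum-E/F-like cells. Castrated Lum-D-like cells had 63.3 in 40 cells of run 2 and 5.90 in 11 of run 1, against the 204 of intact Lum-D-like cells of run 2. AP RFP+ cells were 18 of these 40 castrated and 82 of the 105 intact Lum-D-like cells of run 2. The 11 cells of run 1 came from pooled lobes, and the part of the lobes was not tested. *Gsta4* in the castrated Lum-D-like cells of run 2, at 682, compares with 810 in intact ones, and *Mgst1* was at 318 and 200. In run 1, *Gsta4* was at 94.3 in the 11 castrated and 446 in intact Lum-D-like cells, and *Mgst1* at 177 and 159. *Gstm1* was at 1304 in the castrated cells of run 2, with 85.0% of its UMIs in 6 of the 40 cells. These 6 cells, and 9 of the 105 intact Lum-D-like cells of run 2, are the 15 cells described above. Together those 15 had 2835 CPM of *Gsta4* and 735 of *Mgst1*. Their part in the *Gsta4* and *Mgst1* levels of Lum-D-like cells was not tested.

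AP RFP+ basal cells had the same direction for *Gsta3*, the 1 member called of 7 with at least 50 CPM (9.76% of such genes), at 9.09 CPM in castrated and 79.1 in intact cells (8.70 times lower, 4.78 to 17.3). *Mgst1* was at 367 and 339 and *Gstm1* at 261 and 208. In VP RFP+ basal cells 0 of 5 members with at least 50 CPM were called (14.7% of such genes), and *Gsta3*, below that level, had 2 and 14 UMIs (0.28-fold, 0.03 to 1.22).

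In VP RFP+ luminal cells, 51.9% of the genes with at least 50 CPM were called, and the median of all genes was at 1.00 on the log2 scale. Of the 5 members with at least 50 CPM, 3 were called. *Gstm1* was at 308 CPM in castrated and 58.0 in intact cells (5.31-fold, 4.75 to 5.95), *Gstm2* at 154 and 48.3 (3.20-fold) and *Mgst3* at 210 and 85.6 (2.45-fold). Relative to the median these ratios were 2.66, 1.60 and 1.23, and with library sizes taken without the 50 most abundant genes they were 1.39, 0.66 and 0.27 on the log2 scale, so that only *Gstm1* kept a 2-fold ratio. *Gstm1* in these castrated cells was not carried by cells over 2000 CPM, of which there were none, and without *Ivl* cells its log2 ratio was 2.68. Of the castrated cells 85.7% were Lum-E/F-like and of the intact cells 92.8% Lum-A-like.

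RFP- luminal cells were few after castration, with 50 in the AP and 23 in the DLP. In the AP 0 of 5 members with at least 50 CPM were called (18% of such genes), with *Mgst1* at 60.8 and 31.6 CPM (1.92-fold, 1.38 to 2.66, and 1.86 on the log2 scale without *Ivl* cells) and *Gstm2* at 70.1 and 127 (1.82 times lower, 1.40 to 2.38). In the DLP 2 of 5 were called (13.4%), namely *Gstm1*, at 342 and 80.3 (4.26-fold, 3.35 to 5.43), and *Mgst1*, at 60.2 and 23.5 (2.56-fold, 1.52 to 4.29). For *Gstm1* 2 of the 23 castrated cells held 81.8% of the UMIs, and the other cells were at 64.9 CPM. These 2 cells are among the 15 described above, which together had 735 CPM of *Mgst1*. The castrated value of *Mgst1* rests on 31 UMIs, and the part of the 2 cells in it was not tested. Lum-E/F-like clusters held 72.0% of castrated AP and 56.5% of castrated DLP RFP- luminal cells, and Lum-B-like clusters 80.5% and 55.4% of the intact ones of run 2.

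**Figure D4:**
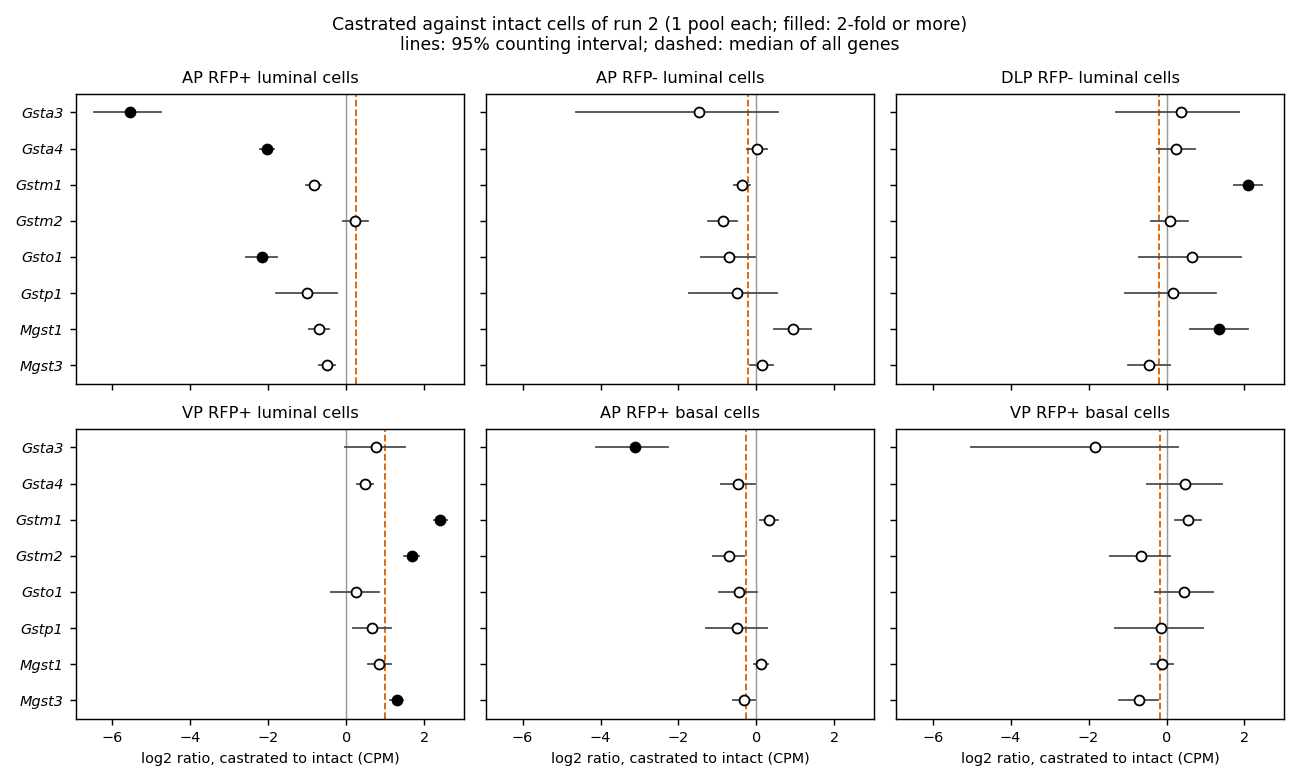
Log2 ratio of plain CPM in castrated to intact cells of run 2 (horizontal axis) for the 8 genes in 6 populations. Lines are 95% counting intervals, filled symbols are 2-fold or more at 50 CPM, the dashed line is the median of all genes, and *Gsta3* is lowest in AP RFP+ luminal (-5.56) and AP RFP+ basal cells (-3.12).

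UGS explants follow the onset of prostate development under dihydrotestosterone. Prostatic epithelium-like cells numbered 254, 472, 1045 and 2051 at days 0, 1, 3 and 6, and 0 of 4 members with at least 50 CPM were called in any of the 3 steps (2.44%, 1.7% and 1.15% of such genes). *Gsta3*, high in adult AP RFP+ luminal cells, was at 2.09, 5.49, 4.42 and 2.69 CPM. *Gsta4* was at 282, 375, 334 and 257, *Mgst1* at 177, 208, 149 and 165, *Mgst3* at 82.4, 138, 101 and 86.9, and *Gsto1* at 46.1, 83.0, 82.4 and 66.4. These 4 genes were highest at day 1 and differed by less than 2-fold between days. *Gstm1*, at 17.5, 40.8, 31.6 and 34.4, had a ratio of 2.33 (1.85 to 2.94) from day 0 to day 1 below the level of 50 CPM, and *Gstm2* (19.96 to 31.1) and *Gstp1* (14.9 to 21.1) stayed low.

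In urothelium-like cells (221, 45, 59 and 117 cells) *Gsta4* was at 411, 884, 897 and 945 CPM, *Gstm1* at 48.3, 306, 548 and 407, *Mgst3* at 166, 429, 589 and 562 and *Gsto1* at 67.0, 161, 314 and 303. All 4 were above the prostatic epithelium-like cells on each day. The urothelium-like class joins a cluster of 210 cells, with *Upk3a* and *Foxq1* among its top genes, and one of 232 cells. The top genes of the latter hold none of the markers used to name the class. Their shares by day are not given, and their part in the change over days was not tested. In mesonephric-like cells (194, 93, 81 and 52) *Gstm2* was at 34.0, 26.7, 129 and 269, *Gstm1* at 21.0, 20.9, 116 and 345 and *Mgst1* at 202, 254, 511 and 572. Each day is 1 pool, and clusters were named by marker genes.

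**Figure D5:**
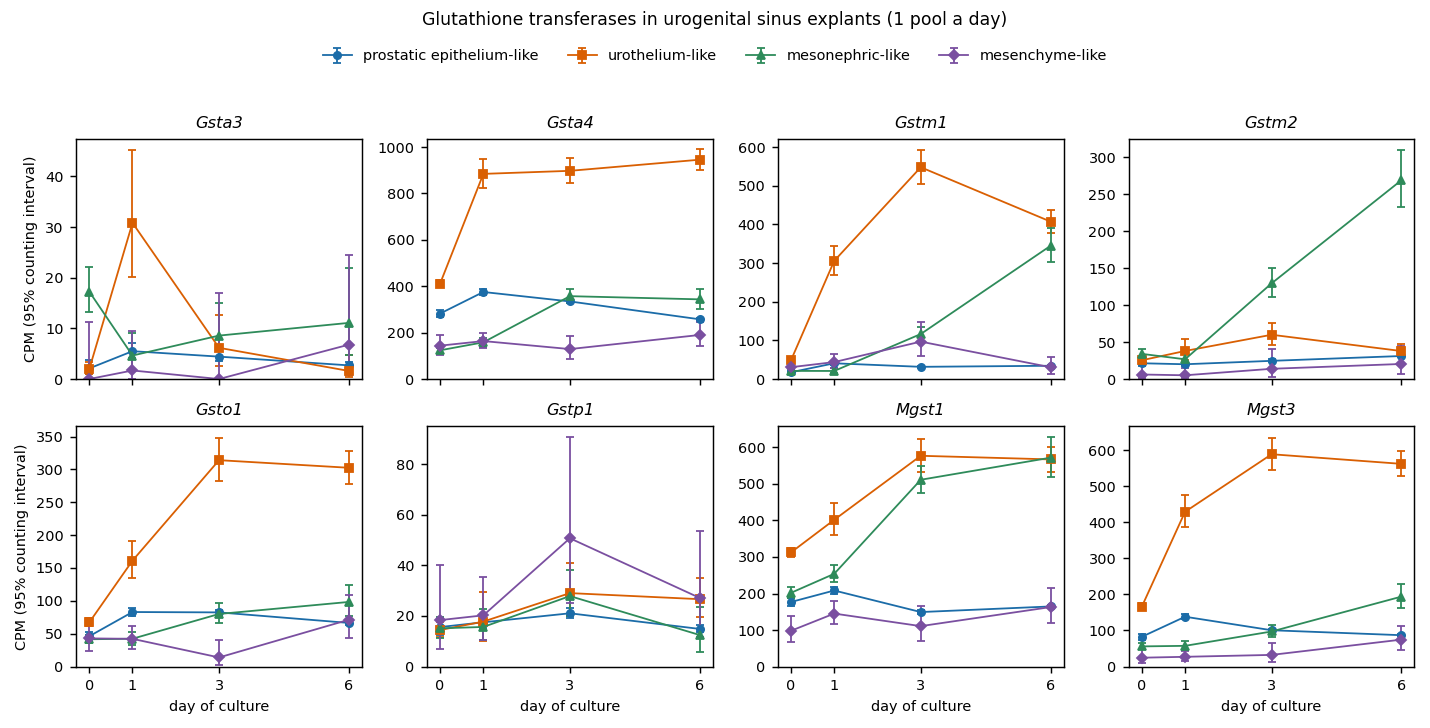
CPM (vertical axis, from 0) of the 8 genes by day of UGS explant culture (horizontal axis) in prostatic epithelium-like, urothelium-like, mesonephric-like and mesenchyme-like cells, with 95% counting intervals and 1 pool a day. Urothelium-like cells have the highest *Gsta4* on each day, reaching 945 at day 6.

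The other genes of glutathione and xenobiotic metabolism were taken from 6 lists. In AP luminal cells (RFP+ against RFP-), where the median of all genes was 0.02, the NRF2 axis had 9 of 24 genes higher and 2 lower (median log2 fold change 0.51), xenobiotic and aldehyde enzymes 6 of 20 higher and 3 lower (0.93), conjugate export 2 of 7 higher and 0 lower (0.78), and other glutathione transferases 3 of 14 higher and 1 lower (0.22). Peroxidases had 5 of 15 higher and 2 lower (-0.08), and glutathione synthesis and recycling 1 of 22 higher and 5 lower (-0.22). Among all genes 20.7% were called. The lists were chosen with earlier results of these data known, so no enrichment is read from these shares. The shares and adjusted p-values of list genes below carry the same limit.

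By edgeR's quasi-likelihood test with Benjamini-Hochberg adjustment, *Cyp2f2*, a cytochrome P450 that activates naphthalene, was higher in AP RFP+ luminal cells (332 ± 81.7 against 32.3 ± 31.9 CPM, log2 fold change 3.26 ± 0.71, adjusted p = 0.00147), as were the retinaldehyde dehydrogenase *Aldh1a1* (2.29 ± 0.32, adjusted p = 1.05e-05), the mu-class transferase *Gstm5* (1.98 ± 0.26, adjusted p = 6.68e-06) and the small MAF gene *Maff* (1.96 ± 0.37, adjusted p = 0.000368). The peroxiredoxin *Prdx6*, which uses glutathione, was 1415 ± 253 CPM in RFP+ and 8988 ± 169 in RFP- cells (-2.67 ± 0.35, adjusted p = 6.68e-06). The aldose reductase *Akr1b3* (-2.37 ± 0.35, adjusted p = 2.35e-05), the glutathione-degrading *Chac1* (-2.37 ± 0.50, adjusted p = 0.00119) and the leucine aminopeptidase *Lap3* (-1.46 ± 0.17, adjusted p = 2.13e-06) were also lower. The same direction in 3 of 3 runs was a condition for naming these 8 genes, and *Cyp2f2* lost its call without run 2 (3.08, edgeR adjusted p = 0.0962).

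Between AP and VP RFP+ luminal cells, conjugate export had 3 of 7 genes higher and 0 lower (median 1.15, all genes 0.05), among them *Abcc3*, an exporter of organic anions (68.8 ± 6.20 against 13.9 ± 5.39 CPM, 2.38 ± 0.28, edgeR adjusted p = 6.8e-07). Other glutathione transferases had 2 of 14 higher and 6 lower (-0.29), with the theta-class *Gstt1* at -2.79 ± 0.43 (adjusted p = 2.71e-05), and *Ggt1*, which cleaves extracellular glutathione, was at -2.23 ± 0.26 (adjusted p = 6.8e-07). The NRF2 axis had 5 of 24 higher and 4 lower (0.42), peroxidases 0 of 15 higher and 3 lower (-0.23), synthesis and recycling 2 of 22 higher and 6 lower (-0.27), and xenobiotic and aldehyde enzymes 4 of 20 higher and 2 lower (0.56). In RFP- luminal cells *Abcc3* was higher in the AP too (1.78 ± 0.35, adjusted p = 0.000862), and the extracellular peroxidase *Gpx3* was lower (-4.74 ± 0.82, adjusted p = 0.000228). Without run 2 the call of *Abcc3* in RFP- cells was lost (1.70, edgeR adjusted p = 0.0606).

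Basal cells differed from luminal cells by *Fmo2*, a flavin monooxygenase, at 493 ± 74.4 against 44.3 ± 10.6 CPM in AP RFP+ cells (3.48 ± 0.33, edgeR adjusted p = 1.35e-08) and 496 ± 60.01 against 14.4 ± 4.59 in VP RFP+ cells (5.06 ± 0.36, adjusted p = 3.76e-11). In VP RFP+ cells *Adh7* (6.00 ± 0.47, adjusted p = 2.03e-10) and the cystine transporter *Slc7a11* (4.67 ± 0.81, adjusted p = 4.75e-05) were higher in basal cells, and *Gpx3* (-3.81 ± 0.91, adjusted p = 0.00159) and *Prdx6* (-2.31 ± 0.35, adjusted p = 9.29e-06) were lower. In the 2 comparisons with few calls, between VP gates and between basal cells of AP and VP, 1 and 0 of the list genes were called. That gene was *Ggt1*, at 43.6 ± 1.91 CPM in VP RFP+ and 97.2 ± 39.5 in VP RFP- luminal cells (-1.19 ± 0.23, adjusted p = 0.015), and its call was lost without run 2 (-1.18, edgeR adjusted p = 0.763) or run 3 (-0.89, adjusted p = 0.89).

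After castration, *Cyp2f2* in AP RFP+ luminal cells was at 35.2 CPM against 390 in intact cells (11.1 times lower) and *Aldh1a1* at 10.2 against 73.2 (7.19 times lower), while *Gclc*, the catalytic subunit of the first enzyme of glutathione synthesis, was at 53.3 against 13.2 (4.03-fold) and *Bach1*, a repressor at antioxidant response elements, at 58.2 against 12.1 (4.81-fold). *Aldh1a1* was also lower in AP RFP+ basal cells, at 84.1 against 499.7 (5.94 times lower). In the explants the peroxidase *Gpx2* was at 27.4, 116, 284 and 73.3 CPM in prostatic epithelium-like cells at days 0, 1, 3 and 6, passing 2-fold at each step.

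Over the 31 intact sums, which share runs and lobes, the members followed different genes. Of 4615 genes with at least 20 CPM, the highest Pearson correlations of log2 CPM were with *Anxa3* for *Gsta3* (r = 0.86), *Elf3* for *Gsta4* (0.91), *Ly6d* for *Gstm1* (0.80), *Tma7* for *Gstm2* (0.78), *Tnfaip8* for *Gsto1* (0.92), *Gm10073* for *Gstp1* (0.80), *Tead1* for *Mgst1* (0.97) and *Gde1* for *Mgst3* (0.89). The next genes were *Add3* (0.84), *Atp6ap2* (0.90), *Sptan1* (0.72), *Zbtb10* (0.78), *Gm26532* (0.90), *Gm10260* (0.77), *Rbpms* (0.96) and *Pmm1* (0.85), in the same order. Between members, r ranged from -0.75 (*Gstm2* and *Mgst3*) to 0.67 (*Gstm1* and *Gsto1*).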

How the data were processed

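The authors ran Cell Ranger 3.1.0 on mm10 for 10x 3′ v3 libraries and deposited raw UMI counts of 31053 genes per cell with MULTI-seq barcode counts. Cells with more than 750 and fewer than 7500 genes and under 10% mitochondrial UMIs (explants over 1000 genes and under 7.5%) and 1 barcode above the study's thresholds were kept. The study's upper limit of 7500 is in UMIs; here it was an alternative. Cells with at least 0.1% of UMIs from *Svs2*, *Svs4*, *Svs5* and *Svs6* or with a *Pax2* UMI were left out (5, 13 and 13). Each run was clustered alone (2000 variable genes, 30 components, 20 neighbours, Leiden resolution 2), and clusters were named with at least 3 markers detected in 20% of cells, rules set after seeing the data. Of basal-like cells, 281 were luminal by a per-cell score. No doublet caller was run beyond the removal of cells with more than 1 barcode. Libraries shared 0 to 6 cell barcodes.

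UMIs of at least 10 cells were summed per run, lobe, gate and class, and 31 intact sums of counts were fitted once in edgeR 4.0.16 (R 4.3.3; TMM, filterByExpr, quasi-likelihood test, 11731 genes, Benjamini-Hochberg, threshold 0.05). The SE is the log2 fold change over the root of F. Sums of 1 run came from the same pool and library: their deviations correlated at 0.06 to 0.432 (1 of 24 pairs under 0.1), and run as a block was an alternative. The fit was tested on simulated data. Castrated and explant values are plain CPM, and their ratios have exact conditional 95% intervals. Levels by kind of cluster, those of castrated cells included, are instead TMM-scaled and have no interval. Members and lists were chosen with earlier results of these data known. Named list genes are the 4 largest rises and falls past the threshold with the same direction in all runs and at least 20 CPM (without a test, the 3 largest 2-fold ratios at 50 CPM), of which the text gives a part. Promoter sequences are from RefSeq.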

Additional observations from a re-analysis of the deposited data

Results flagged for a closer look

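Some genes moved in opposite directions in 2 related comparisons in every run, and in none of these cases was the difference between the 2 effects tested. *Gsta3* was higher in RFP+ than in RFP- luminal cells of the AP in 3 of 3 runs (log2 fold change 4.56) and lower in those of the VP in 3 of 3 runs (-1.01), a difference of 5.57. The same sums read by lobe give -5.57, with *Gsta3* lower in the AP than in the VP among RFP- (-1.56) and higher among RFP+ luminal cells (4.00). The VP RFP- sums held only 10 cells in run 1 and differed between runs in their kinds of cluster, whose part was not tested.

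*Mgst1* was lower in the AP among RFP- (-1.30) and higher among RFP+ luminal cells (1.20), a difference of -2.50. Between lobes it was also higher in the AP in RFP+ luminal cells and lower in RFP+ basal cells (-0.23), a difference of 1.43. *Gsto1* was lower in basal than in luminal RFP+ cells of the AP (-0.60) and higher in those of the VP (1.28), a difference of -1.88.

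*Gstm2* was higher in the AP than in the VP among RFP- luminal cells (0.40) and lower among RFP+ luminal cells (-0.48), a difference of 0.87. It was lower in the AP in RFP+ luminal but higher in RFP+ basal cells (0.36), a difference of -0.83, and correspondingly higher in basal than in luminal RFP+ cells of the AP (0.42) and lower in those of the VP (-0.41), a difference of 0.83. The directions of *Gstm2* in RFP+ luminal cells between lobes and between basal and luminal VP cells turn with library size alone.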

How the results depend on the processing

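Counts of genes called over all genes depended on the settings, and calls of members that a left-out run ended are given beside their results. Of called member values, 1 turned its direction. *Mgst1* between AP and VP RFP- luminal cells was at 0.32 with cells classed by a per-cell marker score (main -1.30), and the cause was not tested. For member values, 182 of the 192 obtained by leaving out 1 run moved by less than the spread between replicates. When 1 run is left out, a plain mean of the runs always moves by less than that spread. No stability is therefore read from this count. Under the other settings 837 stayed within the limit for a move, 129 passed it and 1 reversed. These other values include ratios of single pools, which have no spread between replicates.

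Comparisons are given here with the count of genes called as reported. Between VP gates (39), DESeq2 called 66, no low-count filter 154, only the 2 groups in the fit 20, run as a replicate block 95, and cells without the 5% with the most UMIs 76. Between basal AP and VP cells (35), DESeq2 called 54, no low-count filter 191 and the replicate block 183. Between AP and DLP RFP- cells (146), no low-count filter gave 335, only the 2 groups 61, the block 420 and the per-cell score 96. The block moved no other count by over 1.5 times. With fewer than 7500 UMIs per cell, edgeR called 458 genes between AP gates (2432), 880 between AP basal and luminal cells (3350), 5 between AP and DLP and 0 between basal AP and VP cells, 1049, 568 and 715 genes passed 2-fold after castration in AP RFP+ luminal (444), AP RFP+ basal (273) and VP RFP+ basal cells (426), and the 4 comparisons with VP luminal cells gave no value because too few such cells remained. Library size alone gave 8200 between RFP+ AP and VP (2834), 5807 between RFP- AP and VP (1602) and 6617 between VP basal and luminal cells (4239). Without the 5% of cells with the most UMIs RFP- AP and VP gave 1058. For castrated DLP RFP- cells (276) this gave 496, and library sizes without the 50 most abundant genes gave 511 there and 570 in VP RFP+ luminal cells (1202). At 20 CPM in place of 50, castration gave 860 (AP RFP+), 851 (AP RFP-), 722 (DLP RFP-) and 2299 (VP RFP+) in luminal and 656 (AP) and 1107 (VP) in RFP+ basal cells, and the explant steps 157, 125 and 71 (74, 49 and 32).

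Leaving out 1 run gave 979 to 1935 genes between AP gates, 0 to 46 between VP gates, 631 to 1324 between RFP- AP and VP, 13 to 116 between AP and DLP, 1379 to 2269 between RFP+ AP and VP, 1870 to 2770 and 2287 to 3869 between basal and luminal cells of AP and VP, and 0 to 26 between basal cells. The 0 between VP gates was without run 3. Castrated and explant values have no replicates.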
